A study of Homo sapiens with 4 samples.

Results

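The hypoxia factors and targets are 10 genes, picked by gene name with earlier results of these data known: the HIF alpha subunit genes HIF1A and EPAS1, the prolyl hydroxylase genes EGLN1 and EGLN3, and the target genes VEGFA, ADM, ANGPTL4, CA9, CA12 and NDRG1. All 10 were found among the 31907 gene names with a count in any library, and all 10 passed edgeR's filter on low counts, with 16361 names tested in all. By their treatment labels, the samples were HGC-27 cells, a human gastric cancer (GC) line first grown from a lymph node metastasis. 2 libraries came from cells treated with PBS and 2 from cells treated with 200 ng/ml recombinant IL-17B (rIL-17B), all at 48 h. HGC-27 is 1 cell line, the labels do not say whether the replicates were separate cultures, and oxygen was not a variable of the labels. The error therefore covers the spread between these libraries, which may be technical.

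Cells sense oxygen through the HIF pathway. With oxygen present, the EGLN enzymes hydroxylate prolines of the HIF alpha proteins, and the VHL ubiquitin ligase then marks them for degradation. With little oxygen, the alpha subunits escape this, pair with the ARNT subunit, and switch on genes for glycolysis, blood vessel growth and pH control. The control acts mostly on HIF protein, which RNA counts do not measure, so the messages of the target genes are the usual transcript readout. EGLN3 and, more weakly, EGLN1 are themselves targets, which makes a feedback loop.

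HIF binds a short DNA core, written ACGTG or GCGTG. The set of RefSeq promoters used here (GRCh38.p14) held 8 of the 10 genes. Its windows span 300 bases, from 250 before the start site to 50 after it. This set had no entry for VEGFA and NDRG1, so their promoters were not read. Of the 8, 7 held ACGTG or GCGTG on either strand in at least 1 window and EGLN3 did not. HIF1A had 2 windows, and its window 2 held 0. Of all 35116 promoter windows of this length, 48.45% held one, which is a share of windows and not of genes. The match describes the letters and shows no binding. The 4 windows shown here belong to the genes that stood furthest apart in the libraries, namely ANGPTL4 and ADM at the low end and CA9 at the high end, and to EGLN1, which differed little. They are written 5′ to 3′ on the strand of the gene, with the matched core in capitals. CACGT is ACGTG read on the opposite strand, and a CACGTG would count on both strands.
CA9, chr9:35673678-35673977, plus strand: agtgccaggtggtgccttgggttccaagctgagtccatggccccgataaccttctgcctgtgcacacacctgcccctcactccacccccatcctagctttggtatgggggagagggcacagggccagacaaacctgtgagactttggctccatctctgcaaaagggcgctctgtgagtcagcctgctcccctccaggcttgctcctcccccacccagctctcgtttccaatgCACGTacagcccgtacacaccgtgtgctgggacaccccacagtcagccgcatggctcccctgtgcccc
EGLN1, chr1:231422238-231422537, minus strand: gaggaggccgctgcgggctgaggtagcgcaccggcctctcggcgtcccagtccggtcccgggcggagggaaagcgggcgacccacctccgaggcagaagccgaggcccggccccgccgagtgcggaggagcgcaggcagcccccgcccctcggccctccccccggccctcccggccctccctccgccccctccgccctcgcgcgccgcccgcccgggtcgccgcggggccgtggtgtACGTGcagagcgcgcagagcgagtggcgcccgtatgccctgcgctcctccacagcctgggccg
ADM, chr11:10304823-10305122, plus strand: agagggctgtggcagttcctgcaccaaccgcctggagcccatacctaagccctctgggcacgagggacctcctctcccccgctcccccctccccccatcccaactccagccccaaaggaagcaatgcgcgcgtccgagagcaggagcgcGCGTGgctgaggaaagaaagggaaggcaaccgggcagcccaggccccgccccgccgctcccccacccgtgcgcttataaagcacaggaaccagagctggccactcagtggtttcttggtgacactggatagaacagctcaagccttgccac
ANGPTL4, chr19:8363905-8364204, plus strand: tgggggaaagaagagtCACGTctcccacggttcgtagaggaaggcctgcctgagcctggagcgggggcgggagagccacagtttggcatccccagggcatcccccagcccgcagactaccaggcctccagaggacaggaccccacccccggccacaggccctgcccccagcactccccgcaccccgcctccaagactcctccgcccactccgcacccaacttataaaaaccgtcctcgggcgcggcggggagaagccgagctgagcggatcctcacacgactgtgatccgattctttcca
The core began 18 bases before the start site in CA9 and 13 bases before it in EGLN1. In ADM it began 101 bases and in ANGPTL4 234 bases before the start. HIF1A and EPAS1 held GCGTG 204 and 117 bases before the start, and CA12 held it at 2 places on the opposite strand. The windows of the most and least lowered genes thus both held a core, and no order of the genes was read from it.

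The 4 libraries held between 12888029 and 17555879 counts, where a count is a read assigned to a gene name. Levels are given as CPM, the count scaled to a library of 1000000 counts, where 3 counts correspond to 0.171 to 0.233 CPM. rIL-17B replicate 1 stood apart from the other 3 libraries. It lay at least 2-fold below the PBS mean in 18.6% and at least 2-fold above it in 2.61% of the genes tested, against 0.575% and 0.0611% for rIL-17B replicate 2 (0.5 CPM added to each value). Its mesenchymal markers (7 genes, COL1A1, COL1A2 and FN1 among them) summed to 1137 CPM against 45748 to 54688 CPM in the other libraries. Its 8 neural and glial markers summed to 27.6 CPM against 286 to 617 CPM, with OLIG1, OLIG2 and NCAM1 at 0 in this library alone and SOX10 at 0 in all 4 libraries. Its 5 endothelial markers summed to 1.09 CPM against 22.6 to 35.5 CPM, and its 6 epithelial markers to 1825 CPM against 784 to 1007 CPM. KRT8 (1457 CPM) and KRT18 (355 CPM) made up most of that sum, while KRT19 had 1 count there against 43 to 58 counts in the others. The 7 monocyte markers summed to 8.55 to 10.4 CPM in all 4 libraries, but in rIL-17B replicate 1 CSF1R held 8.14 CPM of the sum, and PTPRC, ITGAM, LYZ and FCGR3A were at 0. The 6 gastric epithelium markers summed to 0.547 to 2.72 CPM, with TFF1 and PGC at 0 in all 4 libraries, and the epithelial cadherin CDH1 lay between 0.440 and 0.753 CPM. The share of counts on mitochondrially encoded genes was 7.02% in rIL-17B replicate 1 and 8.47% to 8.89% in the others. The part of these differences in the results that follow was not tested, and fewer cells of a type and less RNA per cell cannot be told apart in bulk RNA. The labels do not say whether the material of rIL-17B replicate 1 differed from that of the other libraries.

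In cells treated with rIL-17B, 7 of the 10 hypoxia genes lay below both PBS libraries in both replicates (HIF1A, EPAS1, VEGFA, ADM, ANGPTL4, CA12 and NDRG1). CA9 and EGLN3 lay above both PBS libraries, and EGLN1 overlapped them. Of all genes tested, 27.5% lay below and 31.5% above both PBS libraries in this way. By the quasi-likelihood test of edgeR, adjusted over all genes by the Benjamini-Hochberg method, none of the 10 passed a threshold of 0.05, and 0% of all genes did. An unadjusted p under 0.05 in edgeR was reached by 0 of the 10 and by 1.38% of all genes tested, and DESeq2 also called 0 genes. The median log2 fold change in edgeR was -0.72 over the 10 genes and -0.03 over all genes tested. The size of the difference depended on the library. In rIL-17B replicate 1, 7 of the 10 were at least 2-fold below the PBS mean, against the 18.6% of all genes given above. In rIL-17B replicate 2, 0 of the 10 were 2-fold away in either direction, against 0.575% of all genes tested below and 0.0611% above. Over the 10 genes, the log2 ratio to the mean of PBS had a median of -1.27 in replicate 1 and -0.15 in replicate 2, where the medians over all genes tested were 0.08 and -0.001.

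**Figure D1:**
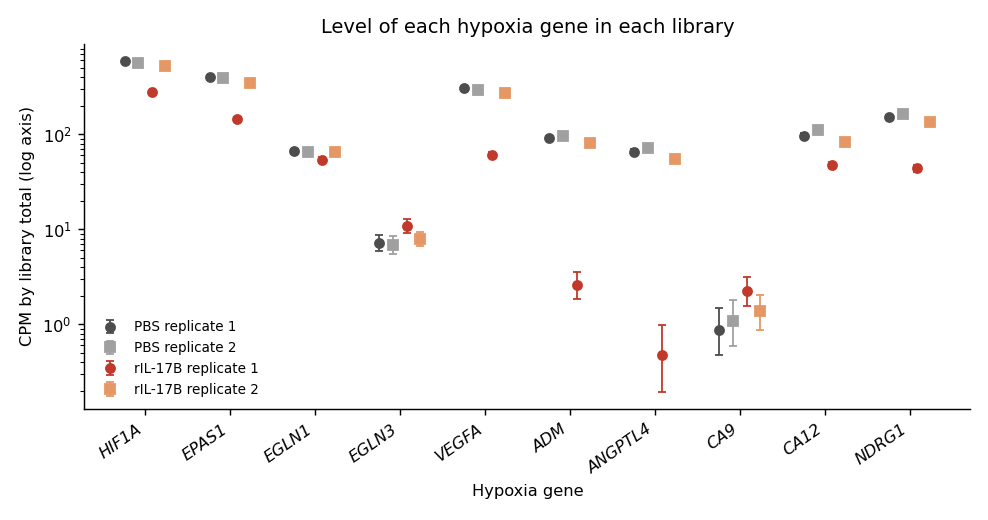
The plot gives the CPM of each hypoxia gene on a log axis for the 4 libraries, with exact 95% Poisson intervals. These treat each read as independent and leave out the spread between libraries. The PBS libraries and rIL-17B replicate 2 lie close together for every gene, while rIL-17B replicate 1 is far lower for ADM (2.60 CPM) and ANGPTL4 (0.479 CPM).

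The calls changed when 1 rIL-17B library was left out. Without rIL-17B replicate 1, CA12 was the only one of the 10 that passed, as a decrease (log2 fold change -0.33, standard error 0.09, adjusted p = 0.0217 from edgeR), among 504 genes or 2.95% of those tested. Without rIL-17B replicate 2, 9 of the 10 passed, all but CA9, among 9489 genes or 55.1% of those tested. In both fits the test compares 1 rIL-17B library with PBS, and that library is assumed to vary as the PBS pair does. Leaving out either PBS library gave 0 calls. With 2 libraries in each group, the smallest two-sided p of an exact permutation test is 0.333, and no such test was run for single genes.

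Per kilobase of annotated exon over all isoforms, the genes of the HIF alpha subunits were the most abundant of the set with PBS. By the longest protein-coding transcript, VEGFA stood between them. HIF1A, which encodes HIF-1α (chromosome 14, 61695513 to 61748259, plus strand, GENCODE 29 on GRCh38), had 586 and 570.2 CPM in the PBS libraries and 277 and 526 CPM in the rIL-17B libraries, in order of replicate. Both rIL-17B libraries were below both PBS libraries, replicate 1 by 2.09-fold and replicate 2 by 1.10-fold relative to the PBS mean of 578 ± 11.3 CPM (SD, n = 2 libraries). The log2 fold change in edgeR was -0.58 (standard error 0.40, adjusted p = 0.661). EPAS1, which encodes HIF-2α and is best known from endothelial and kidney cells (chromosome 2, 46293667 to 46386703, plus strand), had 399 and 388 CPM in the PBS libraries and 146 and 350.0 CPM in the rIL-17B libraries. It was 2.70-fold below the PBS mean of 393 ± 7.59 CPM (SD, n = 2) in replicate 1 and 1.12-fold below in replicate 2 (log2 fold change -0.71, standard error 0.52, adjusted p = 0.661 from edgeR).

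The balance between the alpha subunits differed in 1 library. HIF1A made up 59.5% of the counts on HIF1A and EPAS1 in each PBS library (exact 95% binomial intervals 58.7% to 60.3% and 58.6% to 60.4%) and 60.0% in rIL-17B replicate 2 (59.3% to 60.8%). It made up 65.5% in rIL-17B replicate 1 (64.3% to 66.7%). These intervals treat each read as independent and leave out the spread between libraries. PCR copies are not independent molecules, so the intervals may be too narrow even for counting error. Per kilobase of exon, HIF1A was 2.08 times as abundant as EPAS1 in both PBS libraries, 2.70 times in rIL-17B replicate 1 and 2.13 times in replicate 2. HIF1A overlaps 2 antisense RNA genes, HIF1A-AS1 with 0 to 13 counts and HIF1A-AS2 with 1 to 14 counts per library. The use of strand in counting is not known, and sense and antisense reads cannot be told apart from these counts.

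In the fit to all 4 libraries, the prolyl hydroxylase genes had the log2 fold changes nearest to 0 of the set. EGLN1 encodes PHD2, the main oxygen sensor of the pathway (chromosome 1, 231363751 to 231425044, minus strand). It had 66.8 and 64.7 CPM in the PBS libraries and 53.2 and 66.0 CPM in the rIL-17B libraries. Replicate 2 lay between the PBS libraries and replicate 1 was 1.23-fold below their mean (log2 fold change -0.20, standard error 0.19, adjusted p = 0.669 from edgeR). EGLN3 encodes PHD3, which low oxygen induces in many cells (chromosome 14, 33924231 to 34462774, minus strand). It had 115 and 89 counts with PBS, or 7.23 and 6.91 CPM, and 159 and 140 counts with rIL-17B, or 10.9 and 7.97 CPM. Both rIL-17B libraries were higher than both PBS libraries, by 1.54-fold and 1.13-fold over the PBS mean (log2 fold change 0.33, standard error 0.24, adjusted p = 0.661 from edgeR). The counting interval of replicate 2, 6.71 to 9.41 CPM, overlaps those of both PBS libraries, and that of replicate 1, 9.25 to 12.7 CPM, does not. Because PCR copies can make such intervals too narrow, no difference was read from the overlap. EGLN1 made up 90.2% and 90.4% of the counts on the EGLN1 and EGLN3 pair with PBS, 83.0% in rIL-17B replicate 1 (80.5% to 85.4%) and 89.2% in replicate 2 (87.4% to 90.8%). The annotated span of EGLN3 overlaps SPTSSA on the same strand, so its counts are uncertain.

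The secreted factors held the widest differences of the set in rIL-17B replicate 1. VEGFA, the main growth factor of blood vessels (chromosome 6, 43770184 to 43786487, plus strand), had 304 and 293 CPM in the PBS libraries and 61.2 and 276 CPM in the rIL-17B libraries. It was 4.88-fold below the PBS mean of 298 ± 8.38 CPM (SD, n = 2) in replicate 1 and 1.08-fold below in replicate 2 (log2 fold change -0.85, standard error 0.82, adjusted p = 0.675 from edgeR). ADM encodes adrenomedullin, a peptide that widens blood vessels (chromosome 11, 10304680 to 10307397, plus strand). It had 1470 and 1228 counts in the PBS libraries and 38 and 1425 counts in the rIL-17B libraries, or 92.4 and 95.3 CPM against 2.60 and 81.2 CPM. Replicate 1 was 36.1-fold below the PBS mean and replicate 2 1.16-fold below (log2 fold change -1.17, standard error 1.57, adjusted p = 0.729 from edgeR).

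ANGPTL4, a secreted inhibitor of lipoprotein lipase (chromosome 19, 8363289 to 8374373, plus strand), had 1042 and 936 counts in the PBS libraries and 7 and 969 counts in the rIL-17B libraries. These were 65.5 and 72.6 CPM against 0.479 and 55.2 CPM, with an exact Poisson interval of 0.193 to 0.987 CPM for the 7 counts. Replicate 1 was 144-fold below the PBS mean and replicate 2 1.25-fold below (log2 fold change -1.31, standard error 1.89, adjusted p = 0.739 from edgeR). The 3 secreted factors therefore parted from each other in replicate 1. VEGFA made up 76.7% and 75.4% of the counts on VEGFA and ADM with PBS and 77.3% in rIL-17B replicate 2, but 95.9% in replicate 1 (exact binomial interval 94.4% to 97.1%). Against ANGPTL4 its share was 82.3% and 80.1% with PBS, 83.3% in rIL-17B replicate 2 and 99.2% in replicate 1 (98.4% to 99.7%). ANGPTL4 overlaps the antisense gene RAB11B-AS1, while no other counted gene overlaps VEGFA or ADM.

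**Figure D2:**
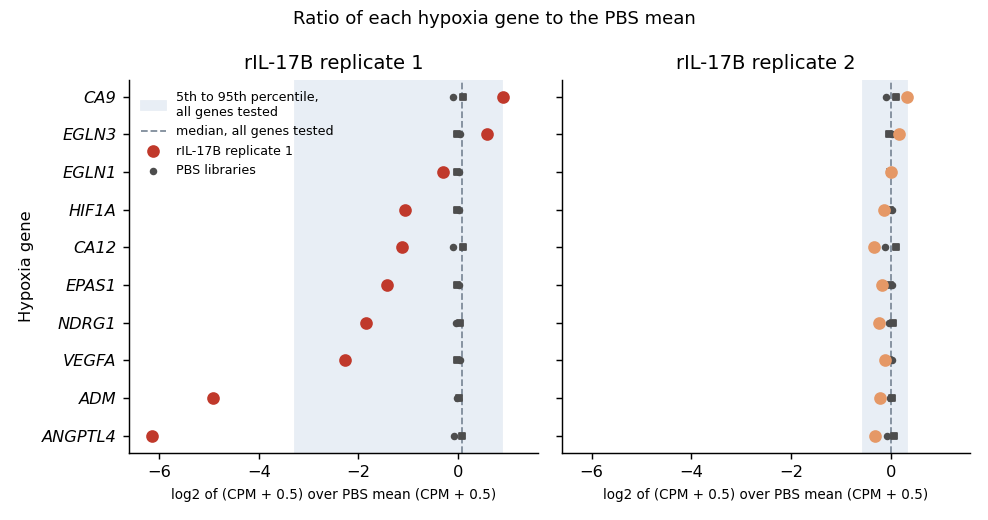
The panels show, for each hypoxia gene, the log2 ratio of each rIL-17B library to the PBS mean with 0.5 CPM added (large points), the PBS libraries themselves (small points), and the 5th to 95th percentile of all 16361 genes tested (band). ANGPTL4 (-6.15) and ADM (-4.93) lie below the band in replicate 1, CA9 (0.89) lies at its upper edge, and in replicate 2 all 10 genes lie between -0.33 and 0.33.

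The carbonic anhydrase genes lay on opposite sides of PBS. These enzymes turn carbon dioxide into bicarbonate and acid at the cell surface, and CA9 is among the targets most tightly tied to HIF-1. CA9 (chromosome 9, 35673856 to 35681159, plus strand) had 14 counts in each PBS library and 33 and 24 counts with rIL-17B. In CPM these were 0.880 and 1.09 with PBS and 2.26 and 1.37 with rIL-17B. Both rIL-17B libraries were higher than both PBS libraries, by 2.30-fold and 1.39-fold over the PBS mean (log2 fold change 0.79, standard error 0.41, adjusted p = 0.661 from edgeR). The counting interval of rIL-17B replicate 1 was 1.55 to 3.17 CPM, that of replicate 2 was 0.876 to 2.03 CPM, and those of the PBS libraries spanned 0.481 to 1.82 CPM. CA9 also overlaps ARHGEF39 on the other strand.

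CA12 (chromosome 15, 63321378 to 63382161, minus strand) had 97.2 and 112 CPM in the PBS libraries and 47.8 and 83.1 CPM in the rIL-17B libraries. It was 2.19-fold below the PBS mean of 105 ± 10.4 CPM (SD, n = 2) in replicate 1 and 1.26-fold below in replicate 2 (log2 fold change -0.73, standard error 0.36, adjusted p = 0.661 from edgeR). CA12 made up 99.1% and 99.0% of the counts on the carbonic anhydrase pair with PBS, 98.4% in rIL-17B replicate 2 (exact binomial interval 97.6% to 99.0%) and 95.5% in replicate 1 (93.7% to 96.9%). NDRG1, a cytoplasmic stress response protein (chromosome 8, 133237171 to 133302022, minus strand), had 154 and 162 CPM in the PBS libraries and 43.7 and 134 CPM in the rIL-17B libraries. It was 3.62-fold below the PBS mean of 158 ± 6.10 CPM (SD, n = 2) in replicate 1 and 1.18-fold below in replicate 2 (log2 fold change -0.87, standard error 0.64, adjusted p = 0.661 from edgeR).

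Levels of different genes were compared per kilobase of annotated exon. With PBS the order of the mean level was HIF1A at 112 ± 2.2 CPM per kb (SD, n = 2), EPAS1 at 53.9 ± 1.04, ADM at 34.5 ± 0.743, ANGPTL4 at 27.8 ± 2.03 and VEGFA at 20.7 ± 0.581. NDRG1 followed at 16.1 ± 0.621, CA12 at 14.3 ± 1.43, EGLN1 at 9.05 ± 0.201, EGLN3 at 0.960 ± 0.031 and CA9 at 0.589 ± 0.087 CPM per kb. The ranges of the 2 PBS libraries did not overlap between any neighbours in this order, although CA12 reached 15.3 and NDRG1 began at 15.7 CPM per kb. The order was the same in rIL-17B replicate 2. In rIL-17B replicate 1 HIF1A and EPAS1 stayed on top at 53.8 and 20.0 CPM per kb, EGLN1 came next at 7.33, and ADM and ANGPTL4 were last at 0.957 and 0.193 CPM per kb. EGLN3 and CA9 stood above them at 1.48 and 1.35 CPM per kb. The exons of VEGFA sum to 14431 bases over all its isoforms, and its longest protein-coding transcript has 3535 bases. By the length of that transcript its PBS level was 84.4 ± 2.37 CPM per kb. EPAS1 lay below it at 76.1 ± 1.47 CPM per kb by its own longest transcript. Measured in the same way, NDRG1 at 42.1 ± 1.62 CPM per kb stood above ANGPTL4 at 36.8 ± 2.68 CPM per kb.

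The rest of the oxygen-sensing machinery was covered by a list of 18 regulators, of which 17 were tested. None passed the same edgeR test (smallest adjusted p = 0.661), and 0 had an unadjusted p under 0.05. Over all genes tested, these shares were 0% and 1.38%. Of the 17, 7 lay above and 3 below both PBS libraries, where the shares over all genes are 31.5% and 27.5%, and their median log2 fold change was 0.09. ARNT, the usual partner of the alpha subunits, had 56.8 and 59.3 CPM in the PBS libraries and 64.8 and 64.5 CPM in the rIL-17B libraries. ARNT2, its paralog of neural tissue, had 315 and 303 counts with PBS, 0 counts in rIL-17B replicate 1 and 293 counts in replicate 2. Against a floor of 3 counts in that library, ARNT2 was at least 106-fold lower than the PBS mean in replicate 1. HIF3A, the third alpha subunit gene, had 0 to 7 counts per library and was not tested.

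The VHL ubiquitin ligase genes showed none of the large differences of the secreted factors. Their log2 ratios to the PBS mean lay between 0.21 and 0.74 in rIL-17B replicate 1 and between -0.05 and 0.27 in replicate 2, over 6 genes. ELOC, which encodes elongin C of this ligase, had the smallest p of the list (unadjusted p = 0.0546 in edgeR's test across all genes, adjusted p = 0.661). It had 83.5 and 79.3 CPM in the PBS libraries and 136 and 98.0 CPM in the rIL-17B libraries, both above both PBS libraries. VHL itself had 95.4 and 94.1 CPM in the PBS libraries and 122 and 103 CPM in the rIL-17B libraries. CITED2, a competitor of HIF for the coactivators EP300 and CREBBP, had 81.1 and 82.3 CPM in the PBS libraries and 64.5 and 74.0 CPM in the rIL-17B libraries. OS9 had 195 and 183 CPM in the PBS libraries and 132 and 180.2 CPM in the rIL-17B libraries. Per kilobase the most abundant regulators were HSP90AA1, the chaperone of HIF-1α, at a mean of 387 CPM per kb over the 4 libraries, and ELOB at 80.2 CPM per kb.

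A list of 51 other hypoxia targets was also read, of which 49 were tested. Of these 0 passed (smallest adjusted p = 0.661 from edgeR, 0 with an unadjusted p under 0.05), where the shares over all genes are 0% and 1.38%. Of the 49, 15 lay above and 25 below both PBS libraries, where 31.5% and 27.5% of all genes did. In rIL-17B replicate 1, 12 were at least 2-fold below the PBS mean, against 18.6% of all genes, and none was 2-fold above it, against 2.61%. Of 20 glycolysis genes, 10 lay above and 7 below both PBS libraries (31.5% and 27.5% of all genes), with a median log2 ratio of 0.07 in replicate 1 and 0.03 in replicate 2. LDHA, which makes lactate, had 1532 and 1402 CPM in the PBS libraries and 2610.2 and 1740.1 CPM in the rIL-17B libraries. PGK1 had 695 and 658 CPM in the PBS libraries and 1091 and 775 CPM in the rIL-17B libraries. ENO1, at a mean of 518 CPM per kb, and LDHA, at 293 CPM per kb, followed GAPDH at 656 CPM per kb as the most abundant targets, with ALDOA next at 284 CPM per kb. ALDOC had the smallest p of this list (unadjusted p = 0.0795 in edgeR's test across all genes), with 19.6 and 24.98 CPM in the PBS libraries and 17.7 and 16.8 CPM in the rIL-17B libraries.

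Of the 8 matrix genes of the target list, 5 lay below both PBS libraries and 0 above (27.5% and 31.5% of all genes), with a median log2 ratio of -1.31 in rIL-17B replicate 1 and -0.12 in replicate 2. LOXL2, a lysyl oxidase that crosslinks collagen, had 307.1 and 306.7 CPM in the PBS libraries and 71.9 and 262 CPM in the rIL-17B libraries, 4.27-fold and 1.17-fold below the PBS mean. The mesenchymal markers given above were low in the same library, and their part in this was not tested. Of the 9 genes of mitochondria and stress, 6 lay below and 2 above both PBS libraries (27.5% and 31.5% of all genes), with AK4, a mitochondrial adenylate kinase, at 34.8 and 47.7 CPM in the PBS libraries and 20.6 and 31.4 CPM in the rIL-17B libraries. TFRC, the transferrin receptor, had 740.5 and 709.9 CPM in the PBS libraries and 1342 and 866 CPM in the rIL-17B libraries. Without rIL-17B replicate 1, the targets that passed the edgeR test included LDHA and TFRC, which were higher (log2 fold change 0.24 and 0.25), and AK4, which was lower (-0.39). Their adjusted p lay between 0.0421 and 0.0444 from edgeR, where 2.95% of all genes passed.

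**Figure D3:**
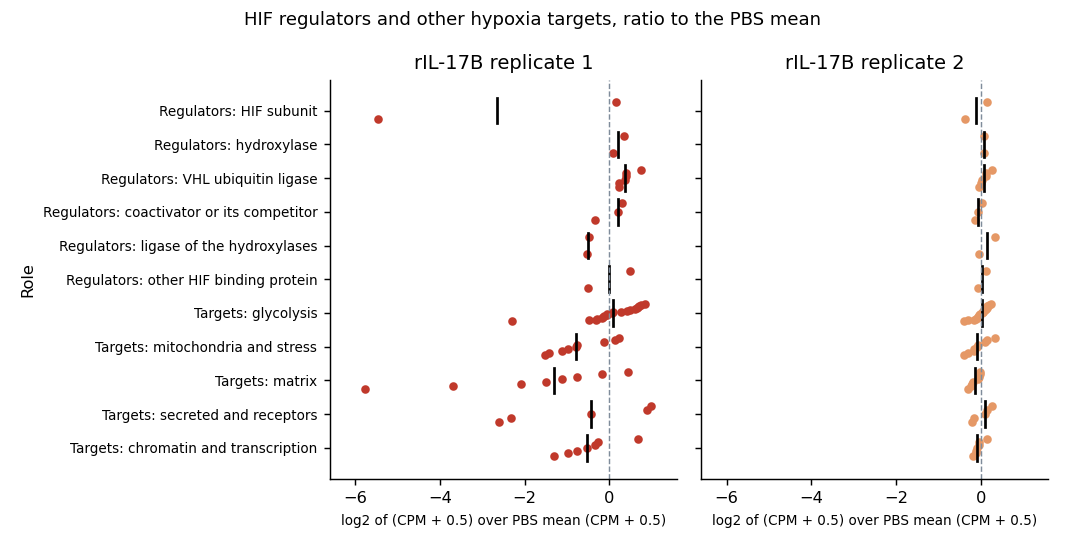
Points are single genes of the wider lists that were tested (17 regulators and 49 other targets), placed by role, and black bars are medians, both on the scale of the log2 ratio to the mean of PBS with 0.5 CPM added. In rIL-17B replicate 1 the matrix genes have a median of -1.31 while the VHL ligase genes lie between 0.21 and 0.74, and in replicate 2 all points lie between -0.40 and 0.35.

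The profile over the 4 libraries was compared between the hypoxia genes and the 69 genes of the wider lists, by the distance between log2(CPM + 1) values centred on their mean. The nearest were BNIP3 to HIF1A (distance 0.107), BNIP3L to EPAS1 (0.016), KDM3A to EGLN1 (0.084) and HSP90AA1 to EGLN3 (0.073). STC2, a secreted glycoprotein, was nearest to VEGFA (0.054), ARNT2 to ADM (0.296) and LOXL2 to NDRG1 (0.226). BHLHE40 was nearest to CA9 (0.081) and ANKRD37 to CA12 (0.0998). The distances rest on 4 libraries, of which rIL-17B replicate 1 lies far from the rest, and are given as a description.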

How the data were processed

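RNA of HGC-27 cells was made into Smart-seq2 libraries per the labels, primed with oligo-dT and amplified by PCR. The extraction protocol of the record speaks of monocytes, while the treatment labels name HGC-27 cells. The authors deposited counts, whole numbers of reads per gene name without normalization, and names with 0 reads were not listed. The submitters' processing notes name Bowtie2 2.2.3, HISAT2 2.1.0, TopHat2 and HTSeq 0.6.0 and the build hg38, with no roles, and strand use is not given in the sources used here. From these files, 83 to 98 names per library listed more than once with equal counts were used once, and 22 to 25 number-like entries per library (0.228% to 0.244% of counts) were left out. Names missing from a library were given 0.

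CPM is the count scaled to a library of 1000000 counts. rIL-17B was compared with PBS by the quasi-likelihood test of edgeR 4.0.16 (R 4.3.3, TMM, filterByExpr, 16361 genes), with Benjamini-Hochberg adjustment over all genes and a threshold of 0.05. The fit was checked on simulated counts. Recovery of changed genes was required at the spread of the PBS libraries, not at the wider spread of the rIL-17B pair. The check therefore does not show which changes the test could find in these data. The standard error is the log2 fold change over the square root of F. Coordinates and exon lengths are from GENCODE 29. DESeq2 1.42.0, other normalizations, filters and lengths, the replicate block and leaving out each library were alternatives.

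The 10 genes and the wider lists were written by hand with earlier results of these data known. From each wider list the text names the 5 genes with the smallest p, the 5 with the highest mean CPM per kb and the nearest profiles, and other genes were named after their values were seen. Some results that this rule names are not reported here.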

Additional observations from a re-analysis of the deposited data

How the results depend on the processing

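The count of 0 genes past an adjusted p of 0.05 was also found with upper-quartile normalization, library totals alone, no filter, at least 10 counts in every library, DESeq2, an adjusted p under 0.1 and the replicate block, with 0 of the 10 hypoxia genes, 0 regulators and 0 other targets. With at least 10 counts in every library ANGPTL4 was not tested. Across them the lowest adjusted p of any gene lay between 0.551 and 0.847. Same-numbered libraries share only a number in the labels, and their deviations from the group means had a correlation of 0.08 across genes. With the replicate block 173 genes had an unadjusted p under 0.05, against 226 without it, 457 with DESeq2 and 879 without the filter, and the log2 fold changes of ADM and ANGPTL4 were -2.66 and -3.34.

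Leaving out 1 library at a time gave between 0 and 9489 calls over all genes (504 without rIL-17B replicate 1, 9489 without rIL-17B replicate 2), 0 to 10 regulators and 0 to 42 other targets. The log2 fold changes ranged from -1.20 to -0.14 for HIF1A, from -1.57 to -0.17 for EPAS1, from -0.44 to 0.00019 for EGLN1, from 0.17 to 0.48 for EGLN3 and from -2.42 to -0.12 for VEGFA. They ranged from -5.30 to -0.21 for ADM, from -7.28 to -0.32 for ANGPTL4, from -1.26 to -0.33 for CA12 and from -1.99 to -0.25 for NDRG1. EGLN1 alone changed sign, at 0.00019 without rIL-17B replicate 1. The values nearest 0 are those without rIL-17B replicate 1, and the cause was not tested. The highest list counts, from lists of 18 regulators and 51 other targets, came from the fit without rIL-17B replicate 2. In that fit 55.1% of all genes tested passed, and whether either list departed from this share was not tested.

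TMM in place of library totals moved the median log2 ratio of all genes in rIL-17B replicate 1 from 0.08 to -0.04. Relative to that median, 8 of the 10 genes were lower under library totals, TMM and upper-quartile scaling, and the count at least 2-fold below the PBS mean was 7 under each. The share of all genes that far below in this library, 18.6%, was counted with library totals and 0.5 CPM added. It was not counted under the other scalings, so the 7 has no such share beside it there. In rIL-17B replicate 2, EGLN1 alone changed sign with the scaling, from 0.0048 to -0.016. Without the added 0.5 CPM, a choice made after seeing the data, CA9 was also 2-fold above the PBS mean in replicate 1. Under TMM the PBS and rIL-17B means of the 10 genes moved by up to 3.43%. Counts as low as 7 for ANGPTL4 and 14 for CA9 also limit those values.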
